A study of Mus musculus with 18 samples.

Results

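The 9 genes described here are the small heat shock protein genes *Hspb1*, *Hspb2*, *Hspb3*, *Cryab*, *Hspb6*, *Hspb7* and *Hspb8*, and the co-chaperone genes *Bag3* and *Unc45b*. They were chosen by name, by matching the Ensembl gene identifiers of the RNA-seq values to these symbols, and all 9 were found among 19153 genes. RNA was measured in immortalized mouse myoblasts, which are muscle precursor cells that fuse into myotubes, to ask how losing LAP2α, a lamina-associated protein encoded by *Tmpo*, alters gene expression before and during differentiation. All cells, controls included, carried a p53 knockout. The wildtype (WT) cells had received a Cas9 plasmid without guide RNA and the LAP2α knockout (KO) cells the same plasmid with a guide, and each genotype was a sorted cell pool and not a single clone. Each genotype was sampled while proliferating in 20% fetal calf serum (Prol), at confluence in the same serum, taken as day 0 of differentiation (D0), and on day 2 after 48 hours in 5% serum (D2). The 6 groups had 3 libraries each. The labels do not say whether the replicates were separate cultures, so the p-values measure the spread between these libraries.

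Small heat shock proteins share an α-crystallin domain, form oligomers and hold unfolding proteins in a soluble state without using ATP. In muscle several of them sit at Z-discs and on actin and desmin filaments, where they protect the contractile apparatus from mechanical stress. BAG3 joins HSPB8 to HSP70 and directs damaged proteins such as filamin to autophagy, and UNC45B works with HSP90 to fold the myosin motor domain. Muscle transcription factors of the MyoD family bind E-boxes, MEF2 factors bind an A/T-rich box, and heat shock factors bind repeated GAA units.

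Sequences upstream of the transcription start were taken from the RefSeq promoter table of build GRCm38.p6, which held a window for 7 of the 9 genes. *Hspb2* and *Cryab* had none. The 150 bases before the start are printed for 4 genes whose RNA was higher at D2 and for *Hspb1*, whose RNA was not, since these are the windows to set beside the values given later. Capitals mark E-boxes (CANNTG), the MEF2 box and the heat shock element GAANNTTC, each read on both strands, and the last base printed is the base before the start.
Hspb3 (chr13:113663677-113663826, minus strand): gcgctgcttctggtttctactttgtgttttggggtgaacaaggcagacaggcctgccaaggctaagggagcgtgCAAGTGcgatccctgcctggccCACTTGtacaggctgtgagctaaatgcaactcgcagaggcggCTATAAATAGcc
Hspb7 (chr4:141420629-141420778, plus strand): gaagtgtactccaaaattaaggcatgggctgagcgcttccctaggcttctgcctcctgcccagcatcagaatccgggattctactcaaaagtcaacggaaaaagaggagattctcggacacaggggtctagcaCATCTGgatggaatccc
Hspb8 (chr5:116422865-116423014, minus strand): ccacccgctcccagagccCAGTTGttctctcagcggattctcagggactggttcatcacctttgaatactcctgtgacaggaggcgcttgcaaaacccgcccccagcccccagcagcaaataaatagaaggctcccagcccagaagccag
Unc45b (chr11:82911103-82911252, plus strand): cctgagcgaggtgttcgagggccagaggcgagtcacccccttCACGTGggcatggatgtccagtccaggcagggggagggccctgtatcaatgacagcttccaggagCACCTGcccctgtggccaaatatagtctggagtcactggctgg
Hspb1 (chr5:135887769-135887918, plus strand): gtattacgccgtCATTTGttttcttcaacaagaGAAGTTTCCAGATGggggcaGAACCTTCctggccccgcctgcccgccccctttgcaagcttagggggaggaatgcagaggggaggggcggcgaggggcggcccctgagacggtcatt

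An E-box was present in the 300-base window (250 bases before and 50 after the start) of 5 of the 7 genes, *Hspb1*, *Hspb3*, *Hspb7*, *Hspb8* and *Unc45b*, and in 72.3% of the 32851 mouse promoter windows of this length. The MEF2 box was found in *Hspb3* alone, 12 bases before the start, where it overlaps a TATAAA match, and in 3.19% of all windows. GAANNTTC was present in 5 of the 7 genes, *Hspb1*, *Hspb3*, *Hspb6*, *Hspb8* and *Bag3*, and in 7.86% of all windows. The 7 genes had 8 windows in all, since *Hspb6* had an additional one, and its GAANNTTC match lay only in chr7:30553051-30553350. *Hspb1* had 2 such matches, 117 and 97 bases before the start, with an E-box directly after the first, and in *Hspb8* and *Bag3* the match lay after the start, at bases 3 and 43. A CArG box and the inverse element TTCNNGAA were in none of the 7, and in 1.63% and 8.52% of all windows. These matches describe the letters in the windows and not binding.

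The deposited values are CPM, counts scaled by the authors to the library size, and library totals ran from 26437823 to 41619016 expected counts, so that 3 counts were worth 0.0651 to 0.119 CPM. Depth was therefore no limit for 6 of the 9 genes, whereas *Hspb3*, *Hspb7* and *Unc45b* were near the detection limit before D2. *Tmpo* was counted over all of its isoforms and so is not specific for LAP2α. It was at 310, 275 and 315 CPM in the WT Prol libraries and at 250, 228 and 260 in KO Prol, without overlap. At D0 and D2 the genotypes overlapped for *Tmpo*, with 106, 150 and 157 CPM at WT D2 and 94.5, 108 and 157 at KO D2. Of 8 myoblast and myotube markers found in the data, 7 rose from Prol to D2 in each genotype, and their summed level went from 35.6 to 36.9 CPM in the WT Prol libraries to 1565 to 3137 at WT D2. Of the 5 fibroblast markers found, all 5 rose in each genotype, from a summed 57.0 to 80.3 CPM in WT Prol to 269 to 518 at WT D2, and their part in the results was not tested. The endothelial, leukocyte and adipocyte markers each summed to 3.22 CPM or less in every library, and *Pax7*, *Cdh5*, *Ptprc* and *Adipoq* were not among the genes listed.

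From Prol to D2 in WT cells, 6 of the 9 genes rose and 3 did not pass the test. *Unc45b*, *Hspb3*, *Hspb7*, *Hspb2* and *Cryab* rose more than 10-fold and *Hspb8* rose about 2-fold, while *Hspb1*, *Hspb6* and *Bag3* had overlapping libraries. A gene passed when limma's moderated test gave a Benjamini-Hochberg adjusted p under 0.05 over the 17672 genes tested, and by this rule 16.6% of all genes were higher and 14.1% lower. The median log2 fold change of the 9 genes was 3.46, and that of all genes tested was -0.01. In such bulk samples more cells that express a gene and more RNA per cell cannot be told apart.

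**Figure D1:**
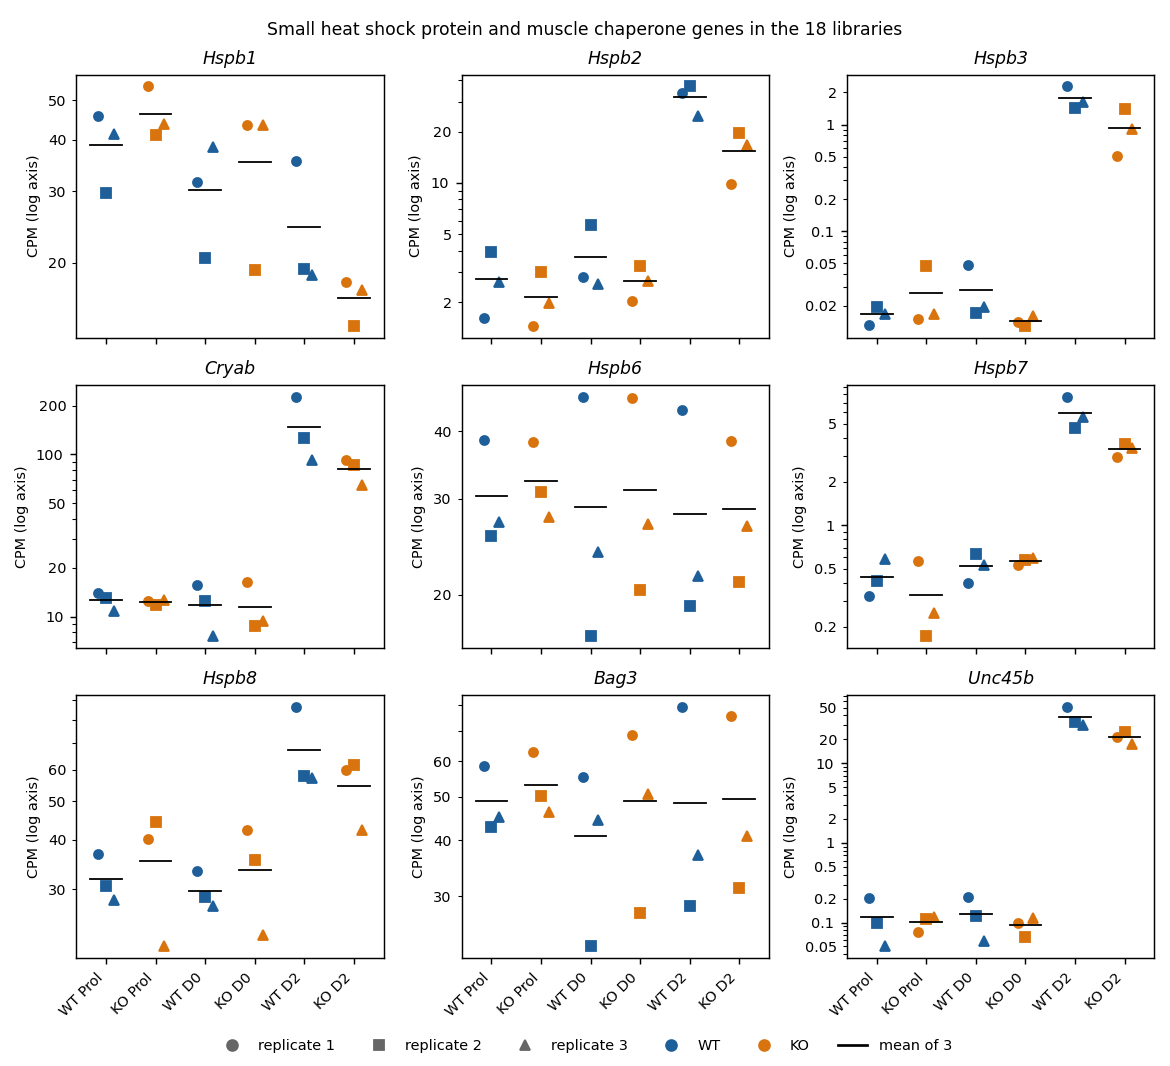
Deposited CPM of the 9 genes in each of the 18 libraries on log axes, with the genotype by colour, the replicate number by symbol and the mean of 3 libraries as a bar. *Hspb3* points under 0.03 CPM are libraries with 0 counts, where only the 0.5 counts added by the authors remain, and for *Hspb2*, *Hspb3*, *Cryab*, *Hspb7* and *Unc45b* all D2 points lie above all Prol and D0 points of the same genotype.

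*Cryab* encodes αB-crystallin, a chaperone of desmin filaments, and was the member of the family with the highest level per kb at WT D2. It was at 14.0, 13.1 and 10.8 CPM in the WT Prol libraries and at 227, 126 and 92.6 CPM at WT D2. Every D2 library was thus several times above every Prol library, and replicate 1 was the highest at D2. The log2 fold change was 3.46 (standard error, SE, 0.32, limma adjusted p = 1.35e-06), an 11.0-fold rise.

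*Hspb2*, the myotonic dystrophy kinase binding protein, is the neighbour of *Cryab* on chromosome 9 and is transcribed in the opposite direction. In the GENCODE M21 annotation of GRCm38, *Hspb2* (chr9:50751078-50752354, minus strand) and *Cryab* (chr9:50751325-50756636, plus strand) overlap by 1030 bases through long *Cryab* transcripts, and the libraries and counting were strand-specific. *Hspb2* was at 1.62, 3.93 and 2.62 CPM in WT Prol and at 33.9, 36.8 and 24.6 CPM at WT D2. The groups did not overlap, and *Hspb2* rose by a log2 fold change of 3.61 (SE 0.40, limma adjusted p = 5.87e-06). Per kb of transcript, *Cryab* was 2.30 to 5.97 times *Hspb2* in the WT Prol libraries and 2.38 to 4.64 times at WT D2, so the ranges of this ratio overlapped between the states.

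*Hspb3*, the partner of HSPB2 in a muscle complex, had 0 counts in all 3 WT Prol libraries and 76.0, 52.4 and 58.0 expected counts at WT D2. This corresponds to 2.28, 1.45 and 1.65 CPM at D2. Their mean was at least 17.9-fold higher than in WT Prol, when WT Prol is set to the mean level of 3 counts per library. The limma adjusted p was 7.81e-07, and the fitted fold change is not given since it depends on the counts added. Its level per kb was the lowest of the 7 small heat shock genes in WT Prol, and even at D2 it stayed under 3 CPM.

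*Hspb7*, a cardiovascular and muscle small heat shock protein that binds filamin C, was at 0.327, 0.415 and 0.587 CPM in WT Prol and at 7.68, 4.66 and 5.54 CPM at WT D2. The states were separated in every library, with a log2 fold change of 3.76 (SE 0.40, limma adjusted p = 4.44e-06). *Hspb8*, which binds BAG3, was at 36.9, 30.6 and 28.3 CPM in WT Prol and at 86.3, 57.9 and 57.2 CPM at WT D2. It also separated the states in every library, but rose less, by a log2 fold change of 1.05 (SE 0.28, limma adjusted p = 0.00974).

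*Hspb1* encodes the broadly expressed HSP25, which binds actin filaments. Its WT Prol libraries were at 45.8, 29.7 and 41.4 CPM and its WT D2 libraries at 35.6, 19.4 and 18.7 CPM. Replicate 1 at D2 lay within the Prol range and replicates 2 and 3 lay under it. The log2 fold change was -0.71 (SE 0.33, limma adjusted p = 0.12), which did not pass, and without replicate 1 of WT D2 it was -1.01 with an adjusted p of 0.0327 in limma.

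*Hspb6*, the HSP20 of smooth and striated muscle, was at 38.5, 25.7 and 27.2 CPM in WT Prol and at 43.8, 19.1 and 21.6 CPM at WT D2. The states overlapped, with a log2 fold change of -0.19 and a 95% interval from -1.03 to 0.65. In each of the 6 groups replicate 1 was the highest library for *Hspb6*, and the D2 libraries of replicates 2 and 3 were under the Prol libraries.

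Among the co-chaperones, *Bag3* was at 58.5, 42.8 and 45.2 CPM in WT Prol and at 79.4, 28.5 and 37.1 CPM at WT D2. Its D2 libraries lay on both sides of the Prol range, and the log2 fold change was -0.14 with a 95% interval from -1.05 to 0.76. *Unc45b*, the myosin chaperone of striated muscle, had 7, 2 and 1 counts in the WT Prol libraries (0.201, 0.0988 and 0.0506 CPM) and was at 51.4, 32.9 and 30.2 CPM at WT D2. It rose more than any other of the 9 genes whose fold change is given, by a log2 fold change of 8.53 (SE 0.51, limma adjusted p = 4.55e-08), with the counts before D2 as the limit on that size.

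In KO cells the same comparison, D2 against Prol, gave 5 genes that rose and 1 that fell, where 17.1% of all genes were higher and 15.2% lower. *Hspb2*, *Hspb3*, *Cryab*, *Hspb7* and *Unc45b* rose in KO as they had in WT, and *Hspb1* fell. The median log2 fold change of the 9 genes was 2.70, against 0.02 for all genes. A difference between the genotypes in these changes is tested further on.

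*Cryab* was at 12.5, 11.7 and 12.7 CPM in KO Prol and at 92.1, 86.0 and 65.1 CPM at KO D2, with a log2 fold change of 2.70 (SE 0.32, limma adjusted p = 1.29e-05). *Hspb2* was at 1.45, 3.00 and 1.98 CPM in KO Prol and at 9.80, 19.5 and 16.7 CPM at KO D2, which is 2.84 on the log2 scale (SE 0.40, limma adjusted p = 5.57e-05). Replicate 1 of KO D2 was the highest of its group for *Cryab* and the lowest for *Hspb2*. *Hspb7* was at 0.567, 0.173 and 0.250 CPM in KO Prol and at 2.93, 3.61 and 3.43 CPM at KO D2, or 3.51 on the log2 scale (SE 0.40, limma adjusted p = 8.42e-06).

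*Hspb3* had 1 count over the 3 KO Prol libraries and 113 over the 3 KO D2 libraries, where it was at 0.507, 1.40 and 0.904 CPM. The ratio of the summed counts, scaled to the library sizes, was 93.7 with a 95% counting interval from 16.5 to 3733, which covers counting error only, and the limma adjusted p was 6.90e-06. *Unc45b* had 2, 3 and 3 counts in KO Prol and was at 21.4, 24.5 and 17.7 CPM at KO D2. Its summed counts rose from 8 to 2460, a scaled ratio of 255 with a counting interval from 129 to 591 (limma adjusted p = 2.60e-07).

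*Hspb1* fell in KO, from 54.1, 41.1 and 43.7 CPM at Prol to 18, 14.0 and 17.2 CPM at D2. All 3 D2 libraries lay under all 3 Prol libraries, and the gene fell by 1.49 on the log2 scale (SE 0.33, limma adjusted p = 0.00254). *Hspb8* went from 40.3, 44.4 and 21.6 CPM to 60.0, 61.6 and 42.3 CPM, and replicate 3 at D2 lay within the Prol range. Its log2 fold change of 0.67 missed the threshold (SE 0.28, limma adjusted p = 0.0817) but passed with the replicate number as a block (limma adjusted p = 0.0043), each replicate being higher at D2. *Hspb6* (log2 fold change -0.20) and *Bag3* (-0.20) overlapped between the states, as in WT.

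**Figure D2:**
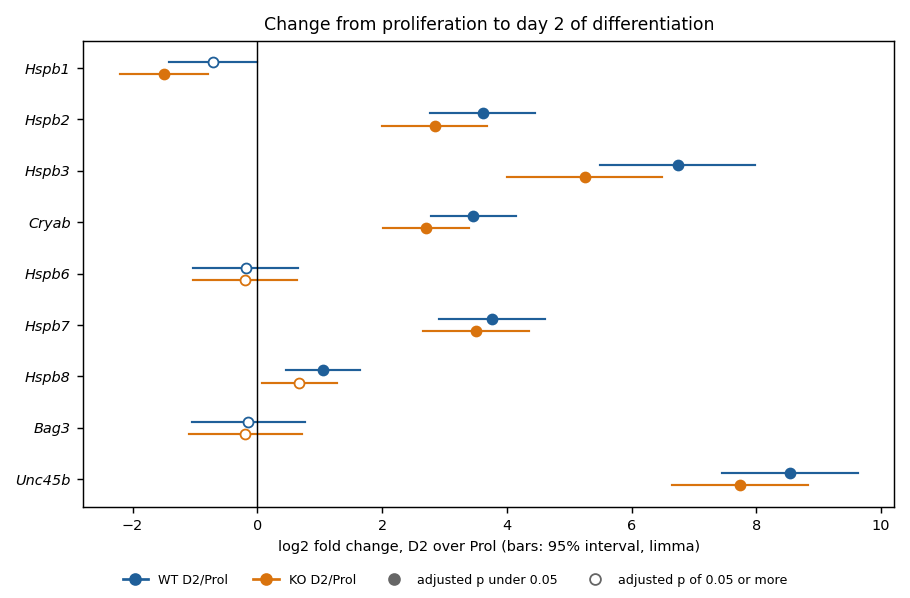
Log2 fold change from Prol to D2 of the 9 genes in WT and KO, with 95% intervals from limma and filled points where the adjusted p was under 0.05 (the sizes for *Hspb3* and *Unc45b* depend on the added counts). In WT 6 genes and in KO 5 genes lie above 0 with filled points, and *Hspb1* is filled below 0 in KO only, where the difference between the genotypes did not pass the test.

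Confluence alone gave no call among the 9 genes, but some intervals were wide. For WT D0 against Prol the 95% interval ran from -0.41 to 1.27 on the log2 scale for *Hspb2* and from -1.24 to 0.58 for *Bag3*. None of the 9 genes passed for D0 against Prol in WT, where 1 gene of 17672 was higher (0.00566%), or in KO, and in WT none reached an unadjusted p under 0.05 either. *Hspb7* in KO was the exception at the unadjusted level, where 0.792% of all genes were higher. It was at 0.567, 0.173 and 0.250 CPM at Prol and at 0.528, 0.574 and 0.598 CPM at D0, which overlapped (log2 fold change 0.96, limma p = 0.0287 unadjusted and 1.00 adjusted, exact two-sided permutation p = 0.2). *Cryab* was at 15.6, 12.4 and 7.61 CPM at WT D0 and at 16.4, 8.81 and 9.38 CPM at KO D0, overlapping with its Prol levels. The voom fits, with and without a replicate block, also gave 0 of the 9 genes for D0 against Prol.

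Measured from D0 instead of Prol, the same 6 genes passed as higher at D2 in WT (background 14.7%) and the same 5 in KO (background 15.3%). *Cryab* had log2 fold changes of 3.61 in WT and 2.86 in KO over D0, and *Hspb2* of 3.18 and 2.50. *Hspb1* was the gene that fell in KO, where 12.9% of all genes were lower, by 1.02 on the log2 scale (SE 0.33, limma adjusted p = 0.0299). At KO D0 it was at 43.4, 19.2 and 43.5 CPM, so that replicate 2 was close to the D2 level of 18, 14.0 and 17.2. This call was lost without replicate 1 or 3 of KO D0 (limma adjusted p = 0.112 and 0.14) and without replicate 2 or 3 of KO D2 (0.101 and 0.0581), and also in a fit of the 2 groups alone (0.0779). *Hspb8* in KO missed the threshold from D0 as well (log2 fold change 0.72, limma adjusted p = 0.0677) and passed with the replicate block (limma adjusted p = 0.00292).

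Levels of different genes were compared as CPM per kb, dividing by the length of the longest principal coding transcript (773 bases for *Hspb2* to 3549 for *Unc45b*). In WT Prol the order was *Hspb1* (43.1 CPM per kb), *Hspb6* (22.3), *Bag3* (19.1), *Hspb8* (17.6), *Cryab* (11.3), *Hspb2* (3.52), *Hspb7* (0.16), *Unc45b* (0.0329) and *Hspb3* (0.0214). *Hspb6* overlapped with *Bag3*, *Bag3* with *Hspb8* and *Unc45b* with *Hspb3*, and the other steps were separated in the 3 libraries. At WT D2 *Cryab* came first at 133 CPM per kb, with all libraries above those of *Hspb2* (41.1), which was followed by *Hspb8* (37.0), *Hspb1* (27.2), *Hspb6* (20.7), *Bag3* (18.9) and *Unc45b* (10.7) with overlapping neighbours. *Hspb3* (2.29) and *Hspb7* (2.15) came last and overlapped with each other.

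The make-up of the 7 small heat shock genes shifted accordingly. Their summed level was 98.1 ± 14.6 CPM per kb (SD, n = 3) in WT Prol and 263 ± 96.6 (SD, n = 3) at WT D2. *Hspb1* made up 43.8% ± 5.04 (SD, n = 3) of that sum in WT Prol and 10.3% ± 0.943 (SD, n = 3) at WT D2, whereas *Cryab* went from 11.6% ± 1.81 (SD, n = 3) to 49.3% ± 5.16 (SD, n = 3). In KO the sum was 108 ± 14.4 CPM per kb (SD, n = 3) at Prol and 164 ± 17.7 (SD, n = 3) at D2, with *Hspb1* at 47.3% and then 11.2% and *Cryab* at 10.3% and then 44.0%. At D2 the ranges of the *Cryab* share overlapped between the genotypes, with 44.4% to 54.7% among WT libraries and 40.4% to 46.3% among KO libraries.

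**Figure D3:**
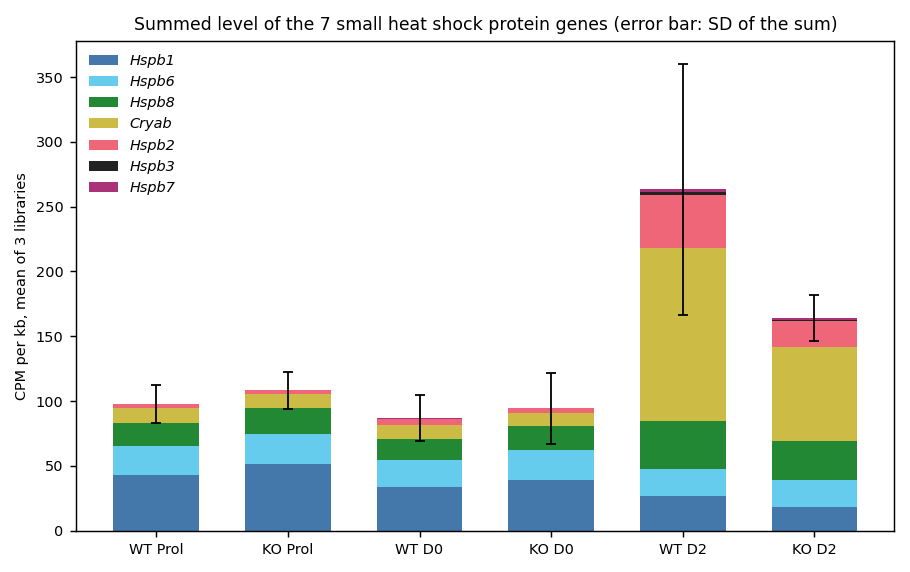
Mean CPM per kb of the 7 small heat shock protein genes in each group, stacked, with the SD of the summed level over 3 libraries as error bar. *Hspb1* is the largest share at Prol and D0 and *Cryab* at D2, and the sum at D2 is 263 CPM per kb in WT and 164 in KO.

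Other chaperone genes were grouped in lists, some of which share genes, to be read against the 16.6% of all genes that were higher and 14.1% that were lower in WT (17.1% and 15.2% in KO). All 8 subunits of the chaperonin CCT, which folds actin and tubulin, fell from Prol to D2 in both genotypes, with a median log2 fold change of -0.98 in WT and -1.11 in KO. *Cct6a* was at 975 ± 129 CPM (SD, n = 3) in WT Prol and 401 ± 72.8 (SD, n = 3) at WT D2, and *Cct7* at 618 ± 68.0 (SD, n = 3) and 279 ± 34.3 (SD, n = 3). Of 4 HSP90 genes 2 fell in each genotype, the cytosolic *Hsp90aa1* (WT log2 fold change -1.65) and the mitochondrial *Trap1* (-0.68). Of the 9 heat-inducible genes 3 fell and none rose, and *Hspd1*, the mitochondrial chaperonin, fell the most of these 3 (WT log2 fold change -1.98, limma adjusted p = 0.00414).

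Of 12 HSP70 and HSP110 genes in WT, *Hspa2* rose (log2 fold change 1.44) and *Hsph1* (-1.55) and *Hspa14* (-1.21) fell, and in KO 1 rose and 3 fell. Of 11 HSP40 co-chaperone genes 3 rose in WT, *Dnajb5* (log2 fold change 2.10), *Dnajb9* (1.67) and *Dnajb2* (0.57), and 4 in KO. Of the 5 other BAG genes, *Bag4* fell in WT (log2 fold change -1.29), and 2 fell in KO. Among the 4 genes of the heat shock factor list, *Hsbp1*, which encodes a protein that binds the trimers of HSF1, rose (1.04), while *Hsf1* had a log2 fold change of -0.24 and an adjusted p of 0.198 by limma.

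Of 8 genes of chaperone-assisted selective autophagy 4 rose in WT and 5 in KO, and none fell. *Synpo2*, a Z-disc adaptor of BAG3, went from 5.39 ± 2.42 CPM (SD, n = 3) to 44.0 ± 9.58 (SD, n = 3) in WT, and the lysosomal *Lamp2* from 167 ± 5.08 (SD, n = 3) to 580 ± 116 (SD, n = 3). *Map1lc3b* and *Map1lc3a*, which encode autophagosome proteins, had WT log2 fold changes of 1.72 and 1.58. *Flnc*, whose product is a client of this pathway, overlapped between the states with a log2 fold change of 0.55. Of 6 genes of the filament and Z-disc list 3 rose in each genotype, *Ttn* (WT log2 fold change 8.51), *Des* (5.81) and *Nes* (1.81). Of 6 genes of the myosin folding list 1 rose and 1 fell in each genotype. *Smyd1*, whose product works with UNC45B on myosin, rose by a log2 fold change of 7.22, while *Unc45a*, the general form of the myosin chaperone, was at 0.23 with an adjusted p of 0.478 by limma.

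**Figure D4:**
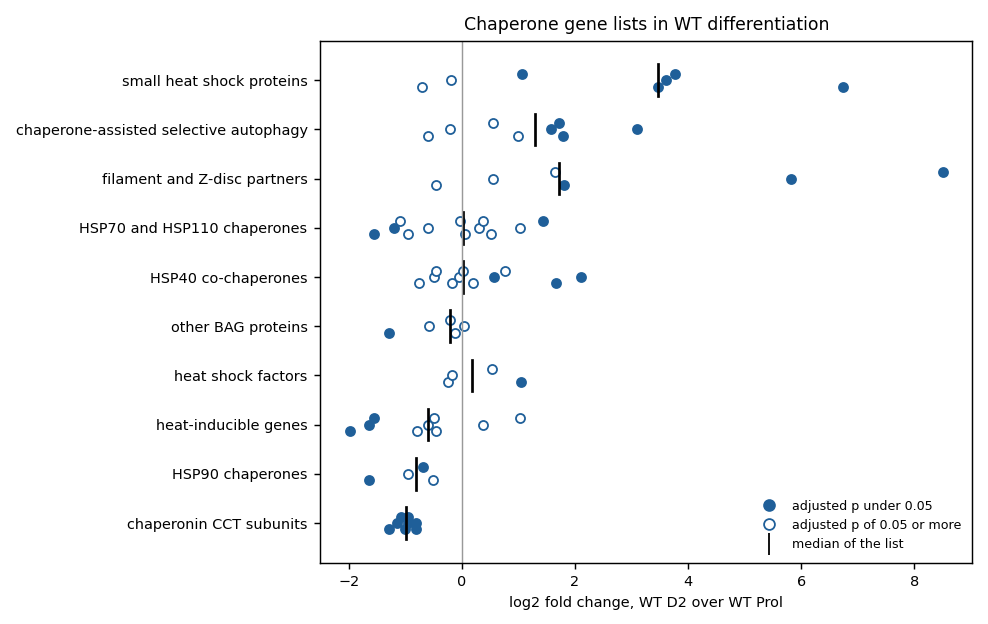
Log2 fold change from WT Prol to WT D2 for the genes of 10 chaperone lists, with filled points where the limma adjusted p was under 0.05 and a vertical bar at the median of each list. The list medians run from -0.98 for the CCT subunits to 3.46 for the small heat shock proteins.

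For each of the 9 genes the 3 genes with the most similar profile over the 6 group means were taken, using the root mean square difference of log2 CPM after centring, among 10240 or 10241 genes with at least 10 CPM in a group. *Cryab* was nearest to *Tmem38a* (difference 0.103), *Rapsn* (0.152) and *Gatm* (0.153). *Hspb2* was nearest to *Cobl* (0.199), *Exoc3l* (0.203) and *Afap1l1* (0.227), and *Cobl* was also second for *Hspb7* (0.231), after *Sema3b* (0.178) and before *Enho* (0.25). *Unc45b* was nearest to *Klhl40* (0.218), *Myl4* (0.228) and *Mylpf* (0.239), and *Hspb3* to *Ckm* (0.222), *Chrnd* (0.256) and *Klhl41* (0.263). Each *Hspb3* group before D2 summed to 0 or 1 counts, so its distances depend on the counts added by the authors. *Unc45b* summed to 8 or 10 counts in these groups. *Klhl40* and *Ckm* had means of at most 0.172 and 0.127 CPM there. The distances that involve these 3 genes therefore also depend in part on the added counts. *Hspb8* had closer neighbours in *Sytl2* (0.044), *Cdk5r1* (0.0473) and *Ehbp1l1* (0.0526). *Hspb1* was nearest to *Slc29a2* (0.107), *Rrp12* (0.107) and *Slc6a6* (0.111). The flat profiles of *Hspb6* and *Bag3* had many near neighbours, led by *Icmt*, *Ppp1r12c* and *Dcp1a* for *Hspb6* (0.0195 to 0.0204) and by *Bcor*, *Atg7* and *Hgs* for *Bag3* (0.0247 to 0.0318).

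KO and WT were compared within each state, to ask whether these genes depend on LAP2α. In proliferating cells none of the 9 genes passed, where 1 gene of all tested was higher in KO (0.00566%), and none reached an unadjusted p under 0.05 by limma with or without voom weights. The libraries of the genotypes overlapped for all 9. At D0 none passed or reached an unadjusted p under 0.05 either. The medians of the 9 log2 fold changes were 0.09 at Prol and 0.14 at D0.

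At D2, all 3 KO libraries lay under all 3 WT libraries for 6 of the 9 genes, *Hspb1*, *Hspb2*, *Hspb3*, *Cryab*, *Hspb7* and *Unc45b*, and 3.81% of all genes had this pattern. None of these 6 passed an adjusted p under 0.05 in limma, nor did any of the 17672 genes. The study's methods call a gene by an unadjusted p under 0.05, an absolute log2 fold change over 1.5 and at least 10 CPM in a library. By these criteria none of the 9 genes was lower in KO, and 0.0226% of all genes were. By more relaxed criteria, which replace the log2 fold change of 1.5 by a change over 1.5-fold, 2 of the 9 genes, *Hspb2* and *Cryab*, were lower in KO, as were 0.255% of all genes. The same 2 were those with an unadjusted p under 0.05, as 1.09% of all genes were in this direction. Over all genes, the stated criteria gave 9 higher and 4 lower in KO, and the relaxed ones gave 82 in both directions. The study reports more genes than either for this comparison, a count nearer to that of the relaxed criteria. Which rule gave the study's calls was not tested. The median log2 fold change of the 9 genes was -0.79, and that of all genes was -0.01.

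*Hspb2* was at 33.9, 36.8 and 24.6 CPM at WT D2 and at 9.80, 19.5 and 16.7 CPM at KO D2. The log2 fold change was -1.09 with a 95% interval from -1.93 to -0.24, which is 2.12-fold lower. The limma p was 0.0147 unadjusted and 1.00 adjusted, and an exact two-sided permutation test of the 3 against 3 libraries gave p = 0.1, the smallest this design allows. The same-numbered libraries differed by -1.79, -0.91 and -0.56 on the log2 scale, and without replicate 1 of KO D2 the value was -0.79. Without that library, or without replicate 2 of WT D2 (-0.97), *Hspb2* no longer met the relaxed criteria. Over all fits that left out 1 library, its value ran from -1.29 to -0.79. Blocking on replicate number narrowed the 95% interval of *Hspb2* to between -1.60 and -0.58. The limma p of that fit was 0.00038 unadjusted and 0.354 adjusted, which did not pass.

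*Cryab* was at 227, 126 and 92.6 CPM at WT D2 and at 92.1, 86.0 and 65.1 CPM at KO D2. The highest KO library was just under the lowest WT library. The log2 fold change was -0.79 with a 95% interval from -1.47 to -0.10. The limma p was 0.0268 unadjusted and 1.00 adjusted, and the exact two-sided permutation test again gave the smallest possible p of 0.1. The value was -0.43 without replicate 1 of WT D2 and -0.64 without replicate 3 of KO D2, and in both cases, as in a fit of the D2 groups alone, *Cryab* no longer met the relaxed criteria. *Unc45b* met them in that fit and in those with voom weights or with a pseudocount of 1 CPM. Over all fits that left out 1 library, the *Cryab* value ran from -1.08 to -0.43. Blocking on replicate number narrowed the 95% interval of *Cryab* to between -1.24 and -0.34. The limma p of that fit was 0.0020 unadjusted and 0.475 adjusted, which did not pass.

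*Hspb7* (log2 fold change -0.82, 95% interval -1.67 to 0.03) and *Unc45b* (-0.82, -1.91 to 0.27) had values of the size of *Cryab* without an unadjusted p under 0.05 in limma, and *Hspb7* stayed under 10 CPM. *Hspb3* was at 76.0, 52.4 and 58.0 counts in WT and 15.0, 64.0 and 34.0 in KO, and its libraries, separated in CPM by a narrow margin in replicate 2 (1.45 against 1.4), gave -1.03 with an interval from -2.27 to 0.21. *Hspb1* gave -0.52 with an interval from -1.23 to 0.18, its highest KO library at 18 CPM and its lowest WT library at 18.7. Without replicate 1 of WT D2 it was -0.22, and with the replicate number as a block its interval ran from -0.98 to -0.07 (limma adjusted p = 0.869). *Hspb3* was at -0.64 without replicate 1 of KO D2. *Hspb8* (-0.29, and -0.09 without replicate 1 of WT D2), *Hspb6* (0.09) and *Bag3* (0.07) overlapped between the genotypes, and the intervals reached from -0.75 to 0.92 for *Hspb6* and from -0.84 to 0.98 for *Bag3*.

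**Figure D5:**
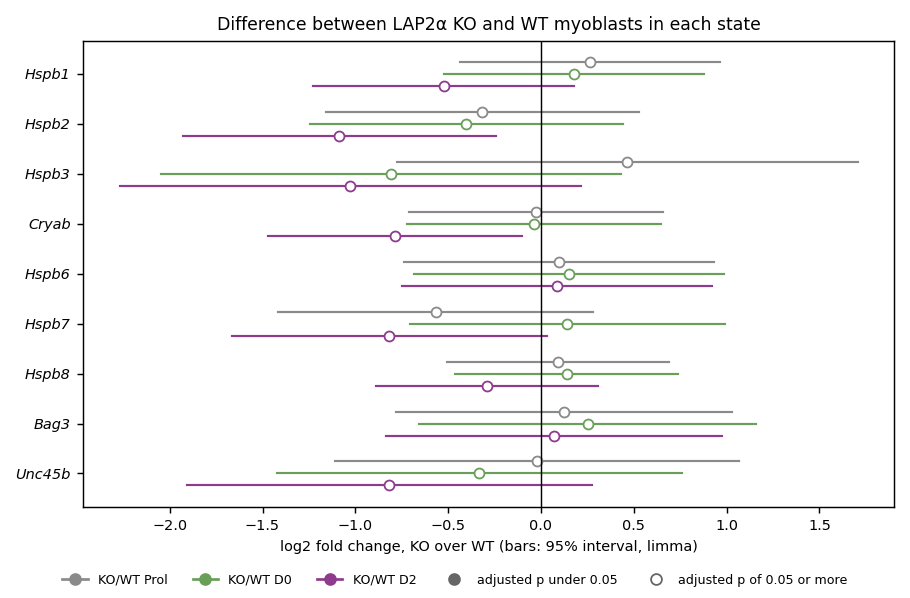
Log2 fold change of KO over WT for the 9 genes at Prol, D0 and D2, with 95% intervals from limma (without the replicate block) and no filled point, as no adjusted p was under 0.05. At D2 the intervals of *Hspb2* and *Cryab* lie below 0, and those of the other genes and states include 0.

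Whether the KO difference was larger at D2 than at Prol was tested as an interaction. None of the 9 genes passed by the adjusted p, by the criteria as the study's methods state them or by the relaxed ones. *Hspb2* gave -0.77 with a 95% interval from -1.96 to 0.42, *Cryab* -0.76 with an interval from -1.73 to 0.21 and *Hspb1* -0.79 with an interval from -1.78 to 0.21. These values shrank to -0.44 for *Hspb2* without replicate 1 of WT Prol, and to -0.40 for *Cryab* and -0.49 for *Hspb1* without replicate 1 of WT D2. *Cryab* was at -1.05 without replicate 3 of WT D2, where it met the relaxed criteria. With the replicate number as a block, these 3 met the relaxed criteria (limma adjusted p = 1.00 each), and none met the criteria the study states. In that fit 124 genes, higher or lower, met the relaxed criteria, and the share that was lower is not given. Without the block, where none of the 9 genes met the relaxed criteria, 0.136% of all genes were lower by them.

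Marker genes were also compared between the genotypes at D2. Of the 8 myoblast and myotube markers, 7 had all KO D2 libraries under all WT D2 libraries (3.81% of all genes), with a median log2 fold change of -0.90, and their summed level was 956 to 1261 CPM at KO D2 against 1565 to 3137 at WT D2. *Myog*, a factor of early differentiation, was at 532, 386 and 261 CPM at WT D2 and at 213, 232 and 148 CPM at KO D2 (log2 fold change -0.96, limma adjusted p = 1.00). The part of these markers in the difference of the chaperone genes was not tested.

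In WT D2, replicate 1 was the highest library for 8 of the 9 genes, all but *Hspb2*, and for 45.1% of all genes tested. In KO D2 it was the highest for 4 of the 9 genes and for 40.7% of all genes. The heat-inducible *Hspa1b*, which shares reads with its near-identical copy *Hspa1a*, was at 94.2, 11.4 and 16.3 CPM at WT D2 and at 124, 22.1 and 26.4 CPM at KO D2. *Bag3* followed the same order, with 79.4, 28.5 and 37.1 CPM and 75.7, 31.3 and 41.0 CPM. Within the heat-inducible list, *Hspe1* and *Chordc1* were instead lowest in replicate 1 of both D2 groups. *Hspe1* was at 177, 447 and 337 CPM at WT D2 and at 156, 477 and 339 CPM at KO D2. The other genes of that list were highest in replicate 1 of both D2 groups. The authors' scaling factor was 0.909 for replicate 1 of WT D2 against 1.14 and 1.18, and 0.931 for replicate 1 of KO D2 against 1.11 and 1.15. The part of these differences in the values of the 9 genes was not tested, beyond leaving the library out.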

How the data were processed

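RNA was sequenced as strand-specific single-end libraries from 18 samples, and per the study's methods the authors trimmed the reads (cutadapt), mapped them to the GRCm38 transcriptome, estimated expected counts with RSEM and summed them to genes. The deposited values are the authors' CPM, (expected count + 0.5) per effective library size, which is the library total multiplied by an edgeR scaling factor, with decimal commas. Expected counts were recovered from them.

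Genes were kept if some group had all 3 of its libraries over 5 expected counts (17672 genes), and their log2 CPM was fitted with limma 3.58.1 (lmFit, eBayes with trend) in R 4.3.3 over 6 groups and 18 libraries, with adjusted p over all genes tested. All 9 genes passed this filter. The relaxed criteria (over 1.5-fold) were planned as those of the study, whose methods state an absolute log2 fold change over 1.5, so both are given. In WT D2/Prol 4167 genes met the relaxed criteria, and by the stated ones 780 were higher and 578 lower. The count that the study reports for that comparison is close to the relaxed one. The fit was tested on simulated data. Members, lists and named genes were chosen with earlier results of these data known: all 9 genes, up to 4 genes a list with the largest change in WT D2/Prol, and the 3 genes nearest in profile. *Flnc*, *Unc45a*, *Hsf1*, *Hspa1b*, *Hspe1* and *Chordc1* are named outside this rule and were chosen after their values were seen. Groups came from the labels. The study's own fit blocked on the sequencing lane because of a batch effect. The labels do not give the lane, so the main fit had no block. Correlation of same-numbered libraries' deviations from their group means was over 0.1 in 25 of 27 pairs, not in WT D2/Prol (0.04 for replicate 3) and WT D2/D0 (0.01). Alternatives were other weights, scalings, filters, a pseudocount, the replicate block, fewer groups and each library left out. Gene lengths for shares (exon union as the alternative) were from GENCODE M21, and that alternative was added after seeing the data.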

Additional observations from a re-analysis of the deposited data

How the results depend on the processing

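Over the 9 genes, the numbers passing an adjusted p under 0.05 were within 1.5 times the reported number in each comparison under each alternative fit. The criteria as the study states them were added after seeing the data. In the main fit they gave 3 genes (*Hspb2*, *Cryab* and *Unc45b*) for D2/Prol and D2/D0 in each genotype, and 0 otherwise. *Hspb1* in KO D2/Prol was just short of them (-1.495). It met them with voom weights (-1.502) and on leaving out some libraries, such as replicate 2 of KO Prol (-1.58). The count for KO/WT D2 by the relaxed criteria (2) stands against 0 by the adjusted p and 0 by the criteria as stated in the study's methods. It was 1 to 2 when 1 library was left out. The fits with voom weights, with voom weights and a random replicate block, and with a pseudocount of 1 CPM gave 3, with *Unc45b* the third, and a fit of these groups alone gave 2, *Hspb2* and *Unc45b*. Over all genes that count was 82, 172 with voom weights, 171 with the pseudocount, 213 with the replicate block, 293 with both voom and a random block, 159 in a fit of these groups, and 62 to 318 without a library (318 without replicate 1 of WT D2). The pseudocount gave 31 genes with an adjusted p under 0.05 in KO/WT D2, against 0. For WT D2/Prol the adjusted count over all genes was 5424 and 8431 with the replicate block, for KO D2/Prol 5706 and 8580, for WT D2/D0 4590 and 7642 (2332 in a fit of these groups), and for KO D2/D0 4997 and 8126 (3185). Where the numbers did not pair all libraries (WT D2/Prol), the replicate block made *Hspb1* pass, with an adjusted p of 0.0121 by limma, and the block changed no other call of the 9 genes than those given here and in the report. Scaling by library totals put the median of all genes at 0.13 to 0.17 on the log2 scale in the D2/Prol and D2/D0 comparisons, made *Hspb8* pass in KO D2/Prol (0.80) and KO D2/D0 (0.83) and turned the WT D2/Prol value of *Bag3* to 0.019. Other changes of sign arose on leaving out a library: *Bag3* ran from -0.57 to 0.17 in WT D2/Prol, -0.56 to 0.0801 in KO D2/Prol and -0.29 to 0.50 in KO/WT D2, and *Hspb6* from -0.56 to 0.0398, -0.43 to 0.0005 and -0.15 to 0.46. The cause was not tested. *Hspb8* also passed in KO D2/Prol without replicate 2 of KO Prol, and in KO D2/D0 without replicate 1 of KO D0 or replicate 3 of KO D2. Its value dropped from 0.67 to 0.35 without replicate 3 of KO Prol and from 0.72 to 0.47 without replicate 3 of KO D0. *Hspb3* and *Hspb7* could not be tested once each gene needed 10 CPM throughout 1 group. Exon union lengths gave *Cryab* 45.8% of the small heat shock sum at WT D2 and *Hspb1* 47.3% at WT Prol.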
